A study of Mus musculus with 4 samples.

Results

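The genes described here are those of the matrix metalloproteinases (Mmp), the ADAM and ADAMTS proteinases, the ADAMTS-like proteins (Adamtsl) and the tissue inhibitors of metalloproteinases (Timp) in mouse astrocytes carrying a short hairpin RNA (shRNA) against Phf8. They were taken by name alone, as every protein-coding row whose GENCODE M21 symbol is 1 of these 5 prefixes followed by a number. This gave 83 genes of the 55421 listed, namely 22 Mmp, 33 Adam, 19 Adamts, 5 Adamtsl and 4 Timp genes. The row of Mmp1a, annotated as a polymorphic pseudogene, was not taken.

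The compared groups were astrocytes infected with a lentivirus for an shRNA specific for PHF8 (Phf8 shRNA, 2 libraries) and astrocytes infected with a lentivirus for a control shRNA (control shRNA, 2 libraries). In both groups the cells were C57BL/6J neural stem cells that had been differentiated in culture in a medium with fetal bovine serum, so no group is tissue and no group is uninfected. Total RNA was sequenced after removal of ribosomal RNA. The labels name neither the hairpin sequences nor the time after infection.

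Metalloproteinases cut proteins with a zinc ion held by histidines of a short motif. MMPs mainly cut matrix proteins and other secreted or surface proteins, ADAMs release the outer parts of membrane proteins such as Notch, the amyloid precursor and growth factor precursors, and ADAMTS enzymes cut matrix proteoglycans and process procollagens. TIMPs bind the active site and block it, and Timp3 is known to act on several ADAM and ADAMTS enzymes as well as on MMPs. In brain, astrocytes make much of the proteoglycan matrix and several of the enzymes and inhibitors that act on it.

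The Phf8 shRNA libraries held 44724759 and 36839530 gene reads and the control libraries 42245602 and 40472627, and the 83 genes took 0.142% and 0.143% of them with Phf8 shRNA and 0.236% and 0.230% with control shRNA. Phf8 itself stood at 44.3 and 42.3 CPM with Phf8 shRNA and at 53.3 and 53.0 CPM with control shRNA, a log2 fold change of -0.30 ± 0.06 (SE). CPM is the usual read count scaled for sequencing depth, here with library sizes adjusted by TMM, and it is used to compare libraries for 1 gene. To compare genes with each other, RPKM was used, the same value per kilobase of exonic length. Mitochondrial ribosomal RNA took 27.8% and 28.2% of Phf8 shRNA reads and 21.2% and 22.5% of control reads. Cell type marker lists moved as well. The summed CPM of 8 astrocyte markers was 6439 and 5747 with Phf8 shRNA and 9282 and 9039 with control shRNA. Of these 8, 2 rose, 5 fell and 1 did not pass. Gfap weighs heavily in this sum, with 1319 and 1024 CPM with Phf8 shRNA and 4079 and 3863 CPM with control shRNA. Slc1a2 rose, with 968 and 982 CPM with Phf8 shRNA and 135.5 and 135.1 CPM with control shRNA. For 10 oligodendrocyte lineage markers (9 rose, 0 fell) the summed CPM was 1196 and 1163 with Phf8 shRNA and 690 and 645 with control shRNA. For 8 neuron markers (6 of 7 tested rose, 0 fell) it was 1858 and 1853 with Phf8 shRNA and 1133 and 1174 with control shRNA. The sum of 10 microglia and macrophage markers (0 of 5 tested rose, 2 fell, C1qa at 0 reads) was 6.08 and 6.18 with Phf8 shRNA and 8.92 and 9.63 with control shRNA. That of 10 endothelial and mural markers (1 of 8 tested rose, 4 fell, Cdh5 at 0) was 26.3 and 26.6 with Phf8 shRNA and 28.1 and 28.0 with control shRNA. These near-equal sums hold opposite changes. Pdgfrb rose, with 23.8 and 24.0 CPM with Phf8 shRNA and 9.55 and 9.53 CPM with control shRNA. Rgs5, Kdr, Acta2 and Kcnj8 fell 5.18-, 9.64-, 20.6- and 29.6-fold. For 8 fibroblast markers (1 of 2 tested rose, 0 fell) the summed CPM was 187 and 188 with Phf8 shRNA and 157 and 155 with control shRNA. Almost all of it was Pdgfra, which oligodendrocyte precursors also express. The part of cell composition in the results below was not tested, and in bulk RNA fewer cells of a type and less RNA per cell cannot be told apart.

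Most of the expressed proteinase and inhibitor genes differed between the groups, and more of them were lower than higher with Phf8 shRNA. Of the 83 genes, 19 had no read in any library and 12 had reads (at most 23 in all) but did not pass the low-count filter, which left 52 tested. Of these, Adam5, Adamts8 and Adamts19 passed the filter through the control libraries, so their place among the tested genes rests on the group where they were higher. Among these 52, 14 rose and 25 fell (75.0% called), with the threshold at 0.05 for the adjusted p of edgeR's quasi-likelihood test. Over all genes tested 52.1% were called, and over protein-coding genes 60.4%. By direction, 26.9% of the tested members rose and 48.1% fell, where 25.2% of tested protein-coding genes rose and 35.2% fell. Changes of at least 2-fold were called in 3 members that rose and 14 that fell, against 4.49% of protein-coding genes that rose and 9.97% that fell. Adam5 and Adamts8, which passed the filter through the control libraries, are among these 14. The median log2 fold change was -0.29 over the tested members and -0.04 over the tested protein-coding genes, and the median size regardless of sign was 0.59 and 0.29. The share of members that rose is thus near that of protein-coding genes, and the members that fell 2-fold or more make up the larger part of the difference in counts. With upper-quartile scaling 17 members rose and 25 fell, while the higher share of the calls over all genes was 58.0% with that scaling and 47.6% with TMM. Both Phf8 shRNA libraries lay on the same side of both control libraries in 45 of the 52 tested members. The same held for 11267 of the 14109 tested protein-coding genes, so such a separation, given below for single genes, was usual in these data.

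**Figure D1:**
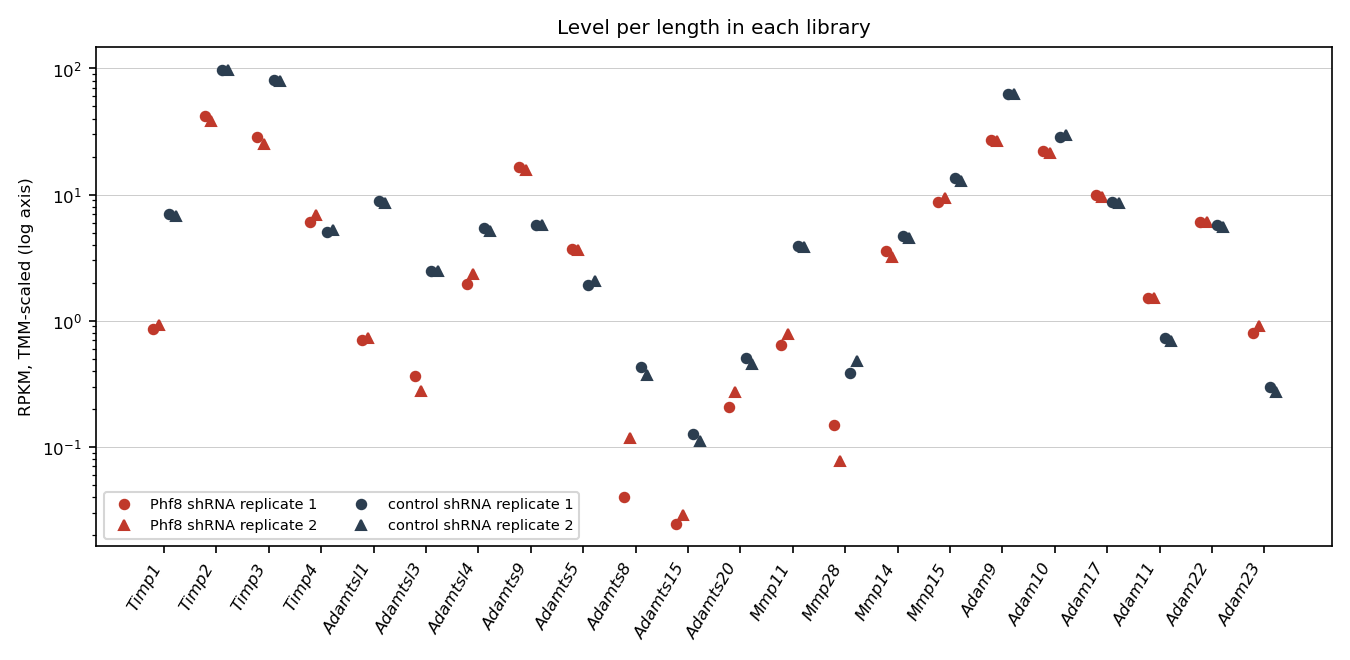
Level of 22 members in each library, as RPKM with TMM scaling on a log axis. For each gene the Phf8 shRNA libraries stand left (red) and the control shRNA libraries right (dark), with a circle for replicate 1 and a triangle for replicate 2. Timp1, Timp2 and Timp3 lie lower and Timp4 higher with Phf8 shRNA, and Adamtsl1 shows the widest gap, at 0.697 and 0.723 RPKM with Phf8 shRNA against 8.87 and 8.51 RPKM with control shRNA.

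All 4 inhibitor genes passed the test, and Timp1, Timp2 and Timp3 fell while Timp4 rose. Timp1 (chromosome X, 20870166 to 20874735, mm10), a secreted inhibitor known to be induced in reactive astrocytes, stood at 0.763 and 0.817 CPM with Phf8 shRNA and at 6.24 and 6.01 CPM with control shRNA. It fell 7.75-fold (log2 fold change -2.95 ± 0.18 SE, adjusted p = 1.59e-58 in edgeR's test). Timp3 (chromosome 10, 86300372 to 86349506), which binds to the matrix, stood at 232 and 206 CPM with Phf8 shRNA and at 657 and 645 CPM with control shRNA. Its fall was 2.97-fold (-1.57 ± 0.06, adjusted p = 2.05e-147). Timp2 (chromosome 11, 118301069 to 118355740), which also takes part in the activation of pro-Mmp2 by Mmp14, stood at 165 and 150 CPM with Phf8 shRNA and at 381 and 378 CPM with control shRNA, 2.41-fold lower (-1.27 ± 0.06, adjusted p = 2.53e-104). For all 3 genes both Phf8 shRNA libraries lay far below both control libraries. Timp4 (chromosome 6, 115241892 to 115252205) went the other way by less, with 35.7 and 40.9 CPM with Phf8 shRNA and 29.9 and 31.0 CPM with control shRNA (0.33 ± 0.06, adjusted p = 7.41e-07). Its libraries did not overlap either, but the 2 Phf8 shRNA libraries were further apart than the 2 control libraries. With a biological coefficient of variation set to 0.2 this call was lost (adjusted p = 0.582), while those of Timp1, Timp2 and Timp3 were kept.

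Each of 3 Timp genes lies within a synapsin gene on the opposite strand, Timp1 in Syn1, Timp4 in Syn2 and Timp3 in Syn3. The host genes, looked at after the Timp values were seen, did not follow them. Syn1 stood at 15.4 and 15.7 CPM with Phf8 shRNA and at 13.9 and 13.4 CPM with control shRNA (log2 fold change 0.19 ± 0.08, adjusted p = 0.0384). Syn2 stood at 91.5 and 90.4 CPM with Phf8 shRNA and at 94.5 and 90.0 CPM with control shRNA (-0.02 ± 0.06, adjusted p = 0.790). Syn3 stood at 22.5 and 27.1 CPM with Phf8 shRNA and at 18.08 and 18.02 CPM with control shRNA (0.45 ± 0.07, adjusted p = 1.38e-09). Exons of Syn3 cover 21.3% of the exonic length of Timp3. The library kit keeps the strand, but whether the counting used it is not stated. If it was not used, the level of Timp3 is uncertain, by an amount that the overlapped length does not give. Timp1 and Timp2 have no such overlap, and Timp4 has 1.53%.

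The promoter windows of the 4 Timp genes are shown because this family split by direction. They run from 250 bases before to 50 bases after the RefSeq transcription start (GRCm38.p6, the assembly of mm10), 5′ to 3′ on the strand of the gene, and capitals mark GC boxes (GGGCGG on either strand), the motif of Sp1 and related factors.
Timp1, chrX:20869916-20870215, plus strand: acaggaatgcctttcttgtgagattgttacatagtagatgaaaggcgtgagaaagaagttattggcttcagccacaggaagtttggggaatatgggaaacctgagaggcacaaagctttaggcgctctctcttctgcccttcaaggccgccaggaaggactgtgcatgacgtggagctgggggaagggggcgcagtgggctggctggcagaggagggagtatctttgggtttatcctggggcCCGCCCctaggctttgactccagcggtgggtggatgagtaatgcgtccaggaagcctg
Timp2, chr11:118355362-118355661, minus strand: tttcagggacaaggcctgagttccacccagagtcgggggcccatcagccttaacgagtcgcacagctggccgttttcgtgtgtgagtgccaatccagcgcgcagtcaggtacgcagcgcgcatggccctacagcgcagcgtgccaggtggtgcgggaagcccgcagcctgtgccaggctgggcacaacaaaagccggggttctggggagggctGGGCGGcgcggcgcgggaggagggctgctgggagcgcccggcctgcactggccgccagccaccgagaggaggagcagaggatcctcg
Timp3, chr10:86300162-86300461, plus strand: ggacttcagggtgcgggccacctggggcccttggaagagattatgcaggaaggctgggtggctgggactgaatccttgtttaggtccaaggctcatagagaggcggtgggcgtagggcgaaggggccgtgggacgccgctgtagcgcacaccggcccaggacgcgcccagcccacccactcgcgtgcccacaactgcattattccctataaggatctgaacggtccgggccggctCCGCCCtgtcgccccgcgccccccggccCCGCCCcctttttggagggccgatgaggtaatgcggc
Timp4, chr6:115252156-115252455, minus strand: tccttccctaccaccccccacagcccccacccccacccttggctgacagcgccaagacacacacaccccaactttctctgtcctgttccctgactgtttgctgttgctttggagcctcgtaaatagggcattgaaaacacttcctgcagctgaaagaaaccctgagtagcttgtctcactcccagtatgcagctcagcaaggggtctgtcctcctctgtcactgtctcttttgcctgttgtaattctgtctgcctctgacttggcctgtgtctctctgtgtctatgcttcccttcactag
The windows of Timp1, Timp2 and Timp3 hold 1, 1 and 2 GC boxes and that of Timp4 holds 0. The Timp4 window also has the lowest CpG content, with a ratio of observed to expected CpG of 0.104, against 0.384 for Timp1, 0.718 for Timp2 and 0.714 for Timp3. The RefSeq start of Timp2 lies 329 bases from the deposited 5′ end, so its window falls within the deposited gene. These are descriptions of the letters in the windows, not of binding.

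In amount per length, Timp2 was the leading member in both groups, at 42.2 and 38.5 RPKM with Phf8 shRNA and at 97.8 and 97.1 RPKM with control shRNA. Timp3 was at 28.5 and 25.3 RPKM with Phf8 shRNA and at 80.7 and 79.3 RPKM with control shRNA. Adam9, at 27.2 and 26.4 RPKM with Phf8 shRNA and 62.8 and 62.3 RPKM with control shRNA, was level with Timp3 in the Phf8 shRNA libraries and below it in the control libraries. The summed level of the 4 Timp genes was 77.6 and 71.7 RPKM in the Phf8 shRNA libraries and 191 and 188 RPKM in the control libraries. The summed level of all Mmp, Adam and Adamts genes was 142 and 141 RPKM with Phf8 shRNA and 185 and 184 RPKM with control shRNA. The ratio of the first sum to the second was therefore 0.546 and 0.507 in Phf8 shRNA libraries and 1.03 and 1.02 in control libraries. Timp4 made up 7.80% and 9.67% of the Timp sum with Phf8 shRNA and 2.66% and 2.80% with control shRNA. Timp1 made up 1.11% and 1.28% of it with Phf8 shRNA and 3.69% and 3.59% with control shRNA. These sums are of RNA per length and say nothing of the amount or activity of the proteins.

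**Figure D2:**
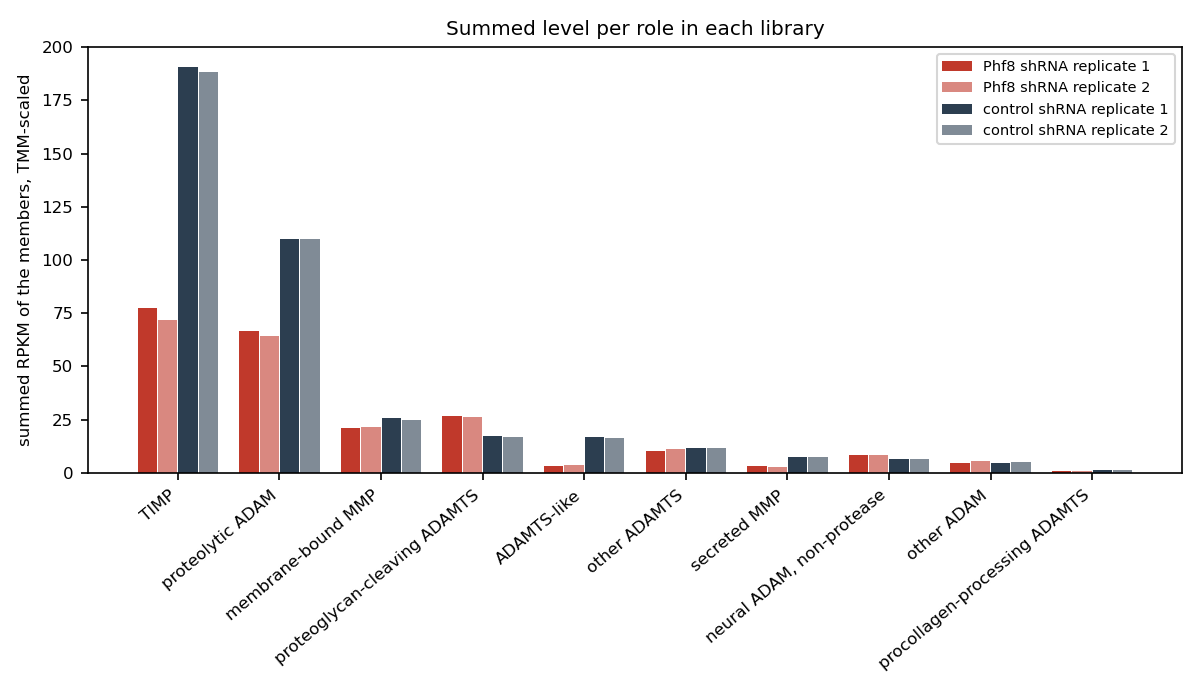
Summed RPKM (TMM-scaled) of the members of each role, with 1 bar for each library, Phf8 shRNA in red on the left and control shRNA in dark on the right. TIMP genes and proteolytic ADAM genes make up most of the level, and the proteoglycan-cleaving ADAMTS genes sum to 26.9 and 26.3 RPKM with Phf8 shRNA against 17.3 and 17.0 RPKM with control shRNA.

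ADAMTS-like proteins share the ancillary domains of the ADAMTS family but have no catalytic domain, and they attach to microfibrils and other matrix. Of the 5 genes 4 were tested, of which 3 fell at least 2-fold and 0 rose. Adamtsl1 (chromosome 4, 85514172 to 86428385), also called punctin, stood at 8.90 and 9.24 CPM with Phf8 shRNA and at 113 and 109 CPM with control shRNA. This was a 12.2-fold fall (log2 fold change -3.61 ± 0.07), the largest of any tested member, with an adjusted p too small for the software to represent. Adamtsl3 (chromosome 7, 82335694 to 82614450) stood at 2.82 and 2.13 CPM with Phf8 shRNA and at 19.3 and 19.2 CPM with control shRNA, 7.69-fold lower (-2.94 ± 0.11, adjusted p = 1.78e-161). Adamtsl4 (chromosome 3, 95676201 to 95687917), which binds fibrillin, stood at 8.14 and 9.78 CPM with Phf8 shRNA and at 22.7 and 21.6 CPM with control shRNA, 2.48-fold lower (-1.31 ± 0.08, adjusted p = 2.99e-55). In each of the 3, both Phf8 shRNA libraries were below both control libraries. Adamtsl5 stood at 0.647 and 0.954 CPM with Phf8 shRNA and at 0.994 and 0.513 CPM with control shRNA, with overlapping groups (0.06 ± 0.29, adjusted p = 0.890). Adamtsl2 had 15 reads with Phf8 shRNA and 8 with control shRNA and was not tested. The 5 genes summed to 3.16 and 3.55 RPKM with Phf8 shRNA and to 17.0 and 16.2 RPKM with control shRNA, a ratio of 0.202.

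The proteoglycan-cleaving ADAMTS genes were all called and went in both directions, with the most abundant 1 rising. Adamts9 (chromosome 6, 92772699 to 92943492), which cleaves aggrecan and versican, stood at 247 and 237 CPM with Phf8 shRNA and at 86.2 and 86.9 CPM with control shRNA. It rose 2.80-fold (log2 fold change 1.49 ± 0.06, adjusted p = 6.04e-145). Exons of A730049H05Rik and Gm15737, on the opposite strand, overlap 11.99% of its exonic length. Both rose with it, with log2 fold changes of 1.26 ± 0.10 for A730049H05Rik and 1.51 ± 0.09 for Gm15737. Their levels were far lower, at 12.3 and 12.7 CPM for A730049H05Rik and 15.6 and 17.4 CPM for Gm15737 with Phf8 shRNA. If the counting did not use the strand, the level of Adamts9 is uncertain, by an amount that the overlapped length does not give. Adamts5 (chromosome 16, 85856173 to 85901828), a main aggrecanase, rose 1.86-fold (0.89 ± 0.07, adjusted p = 3.90e-41), with 39.9 and 39.6 CPM with Phf8 shRNA and 20.5 and 22.3 CPM with control shRNA. In both genes the 2 groups were well apart.

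Adamts1, Adamts4, Adamts8, Adamts15 and Adamts20 of the same role fell. Adamts8 (chromosome 9, 30942562 to 30963838) had 8 and 20 reads with Phf8 shRNA and 85 and 70 reads with control shRNA, a log2 fold change of -2.38 ± 0.29. This log2 fold change was -1.75 without Phf8 shRNA replicate 1 and -3.29 without Phf8 shRNA replicate 2. Adamts8 passed the low-count filter through the control libraries. These values and the interval below therefore describe its fall and lend it no independent support. Gm29724 on the opposite strand, which did not pass (-0.46 ± 0.36), overlaps 10.6% of its exonic length. The depth-adjusted read ratio of Phf8 shRNA to control shRNA was 0.190, with a 95% exact binomial counting interval of 0.122 to 0.286. Adamts15 (chromosome 9, 30899155 to 30922452) had 11 and 11 reads with Phf8 shRNA and 57 and 47 with control shRNA (-2.15 ± 0.33, ratio 0.223, interval 0.134 to 0.355). The intervals cover counting error only. Adamts20, known in mouse for its part in the spread of melanoblasts, stood at 1.85 and 2.42 CPM with Phf8 shRNA and at 4.55 and 4.06 CPM with control shRNA (-1.02 ± 0.16, adjusted p = 4.55e-10). Adamts1 stood at 25.1 and 24.7 CPM with Phf8 shRNA and at 34.0 and 31.5 CPM with control shRNA (-0.40 ± 0.07, adjusted p = 7.05e-09). Adamts4, whose product cleaves brevican, stood at 8.70 and 8.77 CPM with Phf8 shRNA and at 10.7 and 10.8 CPM with control shRNA (-0.30 ± 0.09, adjusted p = 0.00309). For each of these 5 genes both Phf8 shRNA libraries were below both control libraries, which for Adamts8 is not independent of how it passed the filter. The call of Adamts4 was lost with DESeq2 (adjusted p = 0.0564).

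Of the procollagen-processing enzymes Adamts2, Adamts3 and Adamts14, Adamts14 fell (log2 fold change -0.50 ± 0.18, adjusted p = 0.0121) and the others did not pass. Adamts14 lost its call without Phf8 shRNA replicate 2 (adjusted p = 0.0637) and without control shRNA replicate 2 (adjusted p = 0.127). Of the 9 others, Adamts7, Adamts10 and Adamts17 rose, with log2 fold changes of 0.56, 0.31 and 0.62. Adamts7, which cleaves cartilage oligomeric matrix protein, stood at 14.2 and 17.7 CPM with Phf8 shRNA and at 11.9 and 9.53 CPM with control shRNA. Adamts10 lost its call without control shRNA replicate 2 (adjusted p = 0.0716), and Adamts17 without control shRNA replicate 1 (adjusted p = 0.115). Adamts6 and Adamts16 fell, with log2 fold changes of -0.40 and -0.77. Adamts12 and Adamts19 did not pass (-0.05 and -0.77, the second with 20 reads against 36), and Adamts13 and Adamts18 had at most 7 reads in all and were not tested.

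**Figure D3:**
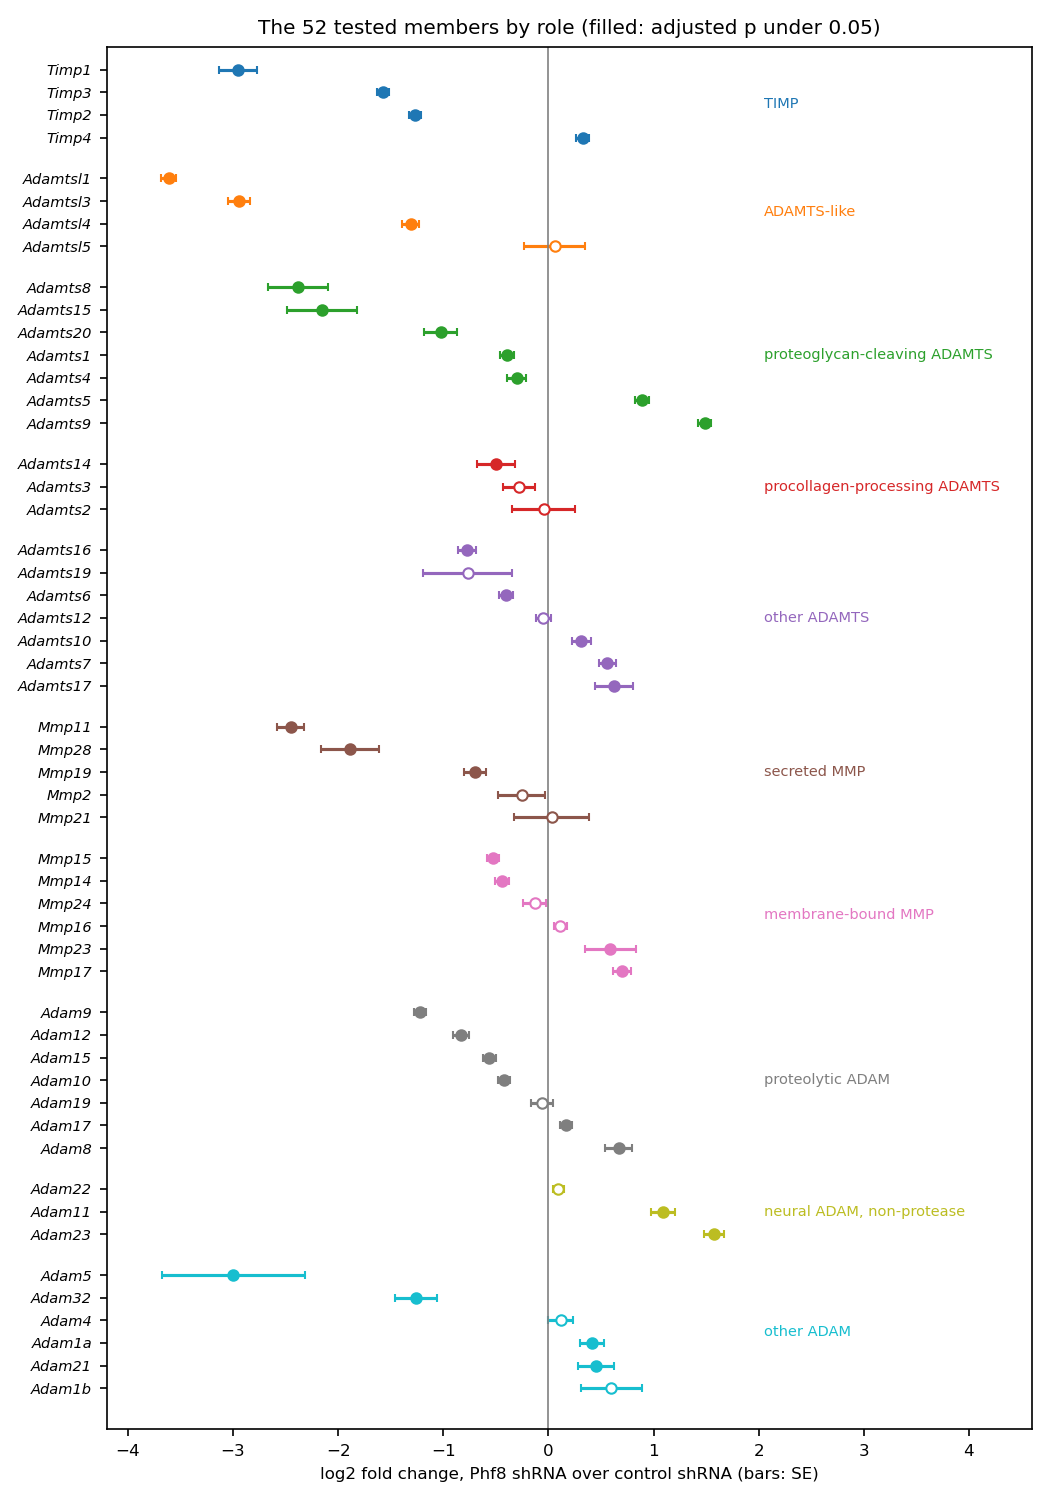
Log2 fold change of Phf8 shRNA over control shRNA for the 52 tested members, grouped by role, with SE as bars. Filled points were called, with an adjusted p under 0.05. ADAMTS-like and Timp genes reach from -3.61 to 0.33, while the neural ADAM genes without protease activity lie at 0.10 to 1.58.

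The 9 Mmp genes that lie side by side on chromosome 9 (Mmp1b, Mmp3, Mmp7, Mmp8, Mmp10, Mmp12, Mmp13, Mmp20 and Mmp27, within 427 kb), which include the classical collagenases and stromelysins, had 6 reads between them in the 4 libraries, all from Mmp13. Mmp9, the gelatinase often studied in brain injury, had 5 and 3 reads with Phf8 shRNA and 1 and 1 with control shRNA and was not tested. Mmp2, the other gelatinase, stood at 1.503 and 1.035 CPM with Phf8 shRNA and at 1.60 and 1.47 CPM with control shRNA and did not pass (log2 fold change -0.25 ± 0.22, adjusted p = 0.347). Its groups overlapped.

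Of the 5 secreted MMP genes that were tested, 3 fell and 0 rose. Mmp11 (chromosome 10, 75923222 to 75936496), stromelysin-3, which is activated by furin inside the cell, stood at 1.78 and 2.18 CPM with Phf8 shRNA and at 10.8 and 10.8 CPM with control shRNA. It fell 5.47-fold (-2.45 ± 0.13, adjusted p = 2.02e-79). Chchd10, on the opposite strand, overlaps 5.58% of its exonic length and fell by 2.25 ± 0.24 on the log2 scale. Mmp28 (chromosome 11, 83440768 to 83463071), epilysin, had 25 and 11 reads with Phf8 shRNA and 64 and 76 with control shRNA, 3.69-fold lower (-1.88 ± 0.28, adjusted p = 5.87e-11). Of its exonic length 12.03% overlaps 1700020L24Rik on the opposite strand, which had at most 6 reads in a library. Mmp19 stood at 6.04 and 4.495 CPM with Phf8 shRNA and at 8.62 and 8.61 CPM with control shRNA (-0.70 ± 0.11, adjusted p = 6.78e-10). Of its exonic length 28.3% is shared with Gm47093 and Tmem198b on the opposite strand, and Tmem198b also fell (-0.23 ± 0.08). Tmem198b stood above Mmp19, at 16.79 and 16.15 CPM with Phf8 shRNA and 20.67 and 17.97 CPM with control shRNA. In all 3 both Phf8 shRNA libraries lay below both control libraries.

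Among the membrane-bound MMP genes, 2 fell and 2 rose, all by less than 2-fold. Mmp14, the main activator of pro-Mmp2, stood at 21.2 and 19.2 CPM with Phf8 shRNA and at 27.7 and 27.1 CPM with control shRNA (-0.44 ± 0.07, adjusted p = 1.30e-09). Mmp15, the most abundant MMP gene per length at 8.75 and 9.46 RPKM with Phf8 shRNA and 13.5 and 12.8 RPKM with control shRNA, fell by 0.53 ± 0.06 on the log2 scale. Mmp17, which is anchored to the membrane by a lipid, rose with 13.4 and 16.4 CPM with Phf8 shRNA and 9.57 and 8.65 CPM with control shRNA (0.70 ± 0.09, adjusted p = 7.48e-15). Mmp23 was called higher (0.59 ± 0.24, adjusted p = 0.0312). It lost the call without Phf8 shRNA replicate 1, control shRNA replicate 1 or control shRNA replicate 2 (adjusted p of 0.150, 0.253 and 0.0556). Mmp16 and Mmp24 did not pass (0.11 ± 0.06 and -0.13 ± 0.11). Mmp24 is a neural MMP that cuts N-cadherin.

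The proteolytic ADAM genes of somatic tissues were the second most abundant role, and their summed level was 66.7 and 64.4 RPKM with Phf8 shRNA and 110 and 110 RPKM with control shRNA. Adam9 (chromosome 8, 24949611 to 25016927), a sheddase, made up most of that difference. It stood at 112 and 109 CPM with Phf8 shRNA and at 258 and 256 CPM with control shRNA, a 2.33-fold fall (-1.22 ± 0.06, adjusted p = 2.02e-99). Adam10 (chromosome 9, 70678997 to 70780229), which cuts Notch and is the main alpha-secretase of the amyloid precursor in neurons, stood at 109 and 105 CPM with Phf8 shRNA and at 141 and 146 CPM with control shRNA (-0.42 ± 0.06, adjusted p = 2.45e-13). Both genes were lower in each Phf8 shRNA library than in either control library.

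Adam17 (chromosome 12, 21323509 to 21373632), which releases tumour necrosis factor and ligands of the epidermal growth factor receptor, was called slightly higher. It stood at 71.4 and 68.0 CPM with Phf8 shRNA and at 62.4 and 61.9 CPM with control shRNA (0.17 ± 0.06, adjusted p = 0.00748), and the call was lost without Phf8 shRNA replicate 1 (adjusted p = 0.0711). Adam12 and Adam15 fell, by 0.83 ± 0.08 and 0.56 ± 0.07 on the log2 scale, and 20.6% of the exonic length of Adam15 overlaps the weakly expressed 4731419I09Rik on the opposite strand. Adam8 rose, with 5.60 and 5.69 CPM with Phf8 shRNA and 3.54 and 3.57 CPM with control shRNA (0.67 ± 0.13, adjusted p = 1.5e-06). Adam19 did not pass (-0.06 ± 0.11). Adam28 had 1 read and Adam33 none.

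The 3 neural ADAM genes whose products have no protease activity, Adam11, Adam22 and Adam23, act as surface receptors for LGI proteins or as adhesion molecules at synapses and axons. Adam23 (chromosome 1, 63445891 to 63596276) rose 2.98-fold, with 14.4 and 16.2 CPM with Phf8 shRNA and 5.32 and 4.89 CPM with control shRNA (1.58 ± 0.10, adjusted p = 4.89e-58). This was the largest rise among the tested members. Adam11 (chromosome 11, 102761439 to 102780262) rose 2.13-fold, with 8.58 and 8.64 CPM with Phf8 shRNA and 4.16 and 3.91 CPM with control shRNA (1.09 ± 0.12, adjusted p = 3.16e-20). Adam22, the most abundant of the 3 per length, stood at 86.2 and 87.0 CPM with Phf8 shRNA and at 82.3 and 79.9 CPM with control shRNA and did not pass (0.10 ± 0.06, adjusted p = 0.146), but it passed with upper-quartile scaling (0.18, adjusted p = 9.63e-04). Markers of neurons and of oligodendrocytes moved up in the same libraries, as given above, and their part in the rises of Adam23 and Adam11 was not tested.

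Most of the remaining 21 ADAM genes are known from testis and sperm, and 10 of them had no read. Of the 6 tested, 2 rose (Adam1a and Adam21) and 2 fell (Adam5 and Adam32). Adam32 stood at 1.09 and 1.20 CPM with Phf8 shRNA and at 2.52 and 2.96 CPM with control shRNA (-1.26 ± 0.20, adjusted p = 1.54e-09). Adam5 had 0 and 3 reads with Phf8 shRNA and 11 and 16 with control shRNA, and it passed the low-count filter through the control libraries alone. Without Phf8 shRNA replicate 1 its log2 fold change was -1.93 (adjusted p = 0.0576), and the value without Phf8 shRNA replicate 2 rests on a group at 0. The call of Adam21 (0.45 ± 0.17) was lost without Phf8 shRNA replicate 2 or control shRNA replicate 1 (adjusted p = 0.0908 and 0.172). For Adam1a, 63.7% of the exonic length is shared with other genes on the same strand, among them Mapkapk5, and its level is uncertain.

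Neighbouring members were looked at after their values were seen. Adam9 and Adam32 lie 0.807 kb apart on chromosome 8 and fell by similar amounts (-1.22 and -1.26), and Adam5 lies next to Adam32. Adamts15 and Adamts8, 20.1 kb apart on chromosome 9, fell by 2.15 and 2.38 on the log2 scale. Adamts1 and Adamts5, 53.1 kb apart on chromosome 16, went in opposite directions, with -0.40 for Adamts1 and 0.89 for Adamts5. Adam4 and Adam21 on chromosome 12 had log2 fold changes of 0.12, which did not pass, and 0.45. Adam1b and Adam1a, 15.1 kb apart on chromosome 5, had 0.60, which did not pass, and 0.415. Mmp21 and Adam12, 203 kb apart on chromosome 7, had 0.03, which did not pass, and -0.83.

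The zinc-binding motif of metalloproteinases (histidine, glutamate, any 2 residues, histidine, any 2, then glycine, asparagine or serine, any 2 and histidine) was searched in the longest open reading frame of each gene. It was found in 61 of the 83 members, namely in all 22 Mmp, all 19 Adamts and 20 of the 33 Adam genes, and in no Adamtsl or Timp gene. Adam11, Adam22 and Adam23 lacked it, as did 10 of the other ADAM genes. Of the 38 tested members with the motif 11 rose and 17 fell, and of the 14 tested members without it 3 rose and 8 fell. Over all 52 tested members 14 rose and 25 fell (75.0% called, where 60.4% of tested protein-coding genes were). No test compared the members with and without the motif.

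Promoter windows of RefSeq, 300 bases long, were found for 52 of the 83 members. All 14 of the members that fell and have a window hold a GC box. Among the others, 3 of 9 that rose, 5 of 9 that did not pass and 4 of 20 that were not tested hold one. Of all 52 members with a window 26 do, and 48.0% of 19980 windows of protein-coding genes do. Those 19980 windows were not limited to tested genes. The share among tested protein-coding genes, or among those that fell, was not computed, so the 14 windows have no matched comparison. The median share of G and C bases was 67.0% in the windows of members that fell, 55.7% in those of members that rose, 66.3% in those of members that did not pass and 57.0% in all windows. The part of base composition in the GC box counts was not tested. For Timp2, Mmp11, Adam1a, Adam34 and Adamts20 the nearest RefSeq start lies 329, 3994, 23787, 44489 and 61068 bases from the deposited 5′ end of the gene. The AP-1 motif TGANTCA, to which Fos and Jun proteins bind, was found in 0 of the 14 members that fell and 0 of the 9 that rose, against 6.98% of all windows. It was found in 6 of the 9 windows of the almost silent Mmp genes of chromosome 9. The TATA box TATAAA, searched on the strand of the gene only, was in 1 of the 14 windows of members that fell, 0 of the 9 of members that rose and 7.88% of all. The TEAD motif GGAATG, searched on both strands, was in 1 of the 14, 1 of the 9 and 13.3% of all. Like it, the AP-1 and GC box motifs were searched on both strands, and no motif contains another.

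**Figure D4:**
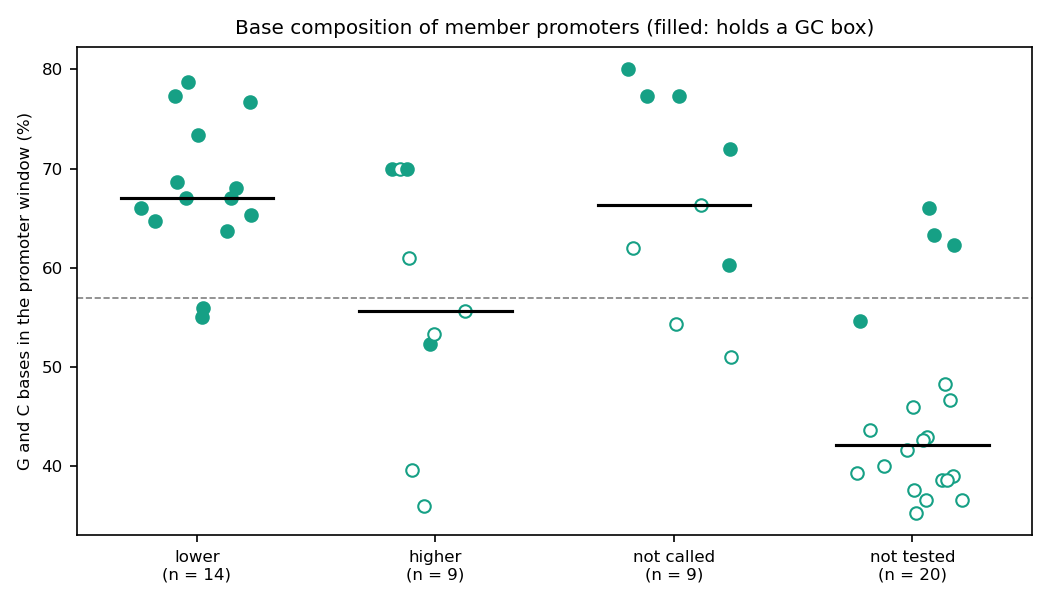
Share of G and C bases in the 300-base promoter windows of the 52 members that have one, by the call of the gene with Phf8 shRNA against control shRNA. Each point is 1 gene, filled where the window holds a GC box, bars are medians, and the dashed line is the median of all protein-coding windows, 57.0%.

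A pair of windows is shown for ADAMTS family genes that moved far in opposite directions, with GC boxes in capitals, from the same RefSeq table and build.
Adamtsl3, which fell, chr7:82335444-82335743, plus strand: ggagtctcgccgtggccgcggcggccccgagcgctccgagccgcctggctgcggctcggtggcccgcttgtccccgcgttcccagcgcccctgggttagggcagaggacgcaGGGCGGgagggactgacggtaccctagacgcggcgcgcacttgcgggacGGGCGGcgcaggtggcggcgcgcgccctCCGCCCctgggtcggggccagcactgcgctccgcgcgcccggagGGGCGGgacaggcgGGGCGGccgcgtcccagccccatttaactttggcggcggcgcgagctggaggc
Adamts9, which rose, chr6:92943485-92943784, minus strand: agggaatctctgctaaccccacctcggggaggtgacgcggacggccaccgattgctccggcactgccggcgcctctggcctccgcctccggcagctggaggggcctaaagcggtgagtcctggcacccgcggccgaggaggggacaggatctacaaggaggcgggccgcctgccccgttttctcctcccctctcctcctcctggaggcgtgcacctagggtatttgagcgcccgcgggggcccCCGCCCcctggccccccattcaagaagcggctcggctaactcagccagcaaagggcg
The window of Adamtsl3 holds 5 GC boxes and is 78.7% G and C, and that of Adamts9 holds 1 and is 70.0% G and C. The pair was picked after the values were seen. The Adamts9 window lies above the median of 55.7% for members that rose, of which 3 of 9 hold a GC box.

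Other genes of the pathway were taken from 3 lists. From each list, the 6 called genes with the smallest p are given, and the others named were picked after their values were seen. Of 33 listed activators, inhibitors and partners, 24 were tested, of which 7 rose and 11 fell (75.0% called, where 60.4% of tested protein-coding genes were), and their median log2 fold change was -0.25. A2m, a secreted inhibitor that traps proteinases of all classes, stood at 242 and 197 CPM with Phf8 shRNA and at 1372 and 1369 CPM with control shRNA, a fall by 2.64 ± 0.07 on the log2 scale. Reck, a membrane-anchored inhibitor of MMPs, fell by 0.39 ± 0.08. Tspan15, a tetraspanin that accompanies Adam10 to the cell surface and steers it to N-cadherin, stood at 75.0 and 75.8 CPM with Phf8 shRNA and at 328 and 322 CPM with control shRNA (-2.11 ± 0.06). Tspan17, another tetraspanin of that group, fell by 1.92 ± 0.09, while Tspan5 and Tspan33 rose by 0.32 ± 0.07 and 0.42 ± 0.11 and Tspan14 did not pass (0.05 ± 0.06). Rhbdf1 and Frmd8, which are needed to bring Adam17 to the surface, fell by 0.67 ± 0.06 and 0.53 ± 0.06. The proprotein convertase genes Pcsk5 and Pcsk6 rose by 1.07 ± 0.09 and 0.80 ± 0.07, and Furin did not pass (-0.10 ± 0.06). In the plasminogen activator system, Plat fell by 0.68 ± 0.06 with 198 and 194 CPM with Phf8 shRNA and 317 and 310 CPM with control shRNA, and Plau fell by 2.82 ± 0.38 at a low level, with 9 and 4 reads with Phf8 shRNA and 53 and 45 with control shRNA. Of the inhibitors of these activators, Serpine2 and Serpini1 rose, by 0.26 ± 0.06 and 0.53 ± 0.18.

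Of 43 listed substrates, 35 were tested, and 14 rose and 15 fell (82.9% called, against the same 60.4%), and the median was -0.0038 on the log2 scale. The lecticans, brain proteoglycans cut by ADAMTS enzymes, that passed were higher. Bcan, the brevican gene, stood at 703 and 699 CPM with Phf8 shRNA and at 346 and 320 CPM with control shRNA (1.07 ± 0.06), and Ncan rose by 0.84 ± 0.06. Acan rose at a low level with 17 and 16 reads with Phf8 shRNA and 10 and 4 with control shRNA (1.30 ± 0.47, adjusted p = 0.0119), and Vcan did not pass (0.11 ± 0.06). Reln, the reelin gene, cut by Adamts3, rose by 1.16 ± 0.06. Among other matrix genes, Fn1, the fibronectin gene, stood at 11.5 and 10.9 CPM with Phf8 shRNA and at 426 and 410 CPM with control shRNA (-5.22 ± 0.07). Tnc went the other way and rose by 0.60 ± 0.06. The basement membrane genes Lamc1, Col4a1, Col4a2 and Hspg2 fell, by 1.23 ± 0.06 for Lamc1 and 1.51 ± 0.07 for Col4a1, whereas Nid1 rose by 0.20 ± 0.07 and Lama1 did not pass. The membrane proteins of the list went both ways. Hbegf fell by 1.58 ± 0.07, Cd44 by 1.17 ± 0.06 and Il6ra, the interleukin-6 receptor gene, by 2.14 ± 0.11, and App, Cdh2, Prnp, Dag1 and Tnfrsf1a also fell. Nrg1 rose by 1.12 ± 0.09 and L1cam by 0.86 ± 0.16, and Cx3cl1, Ptprz1, Tgfa, Nrcam and Nlgn1 also rose. Notch1 and Notch2 did not pass (0.0018 ± 0.06 and -0.03 ± 0.06). The tested LGI ligands of Adam22 and Adam23 were divided, with Lgi3 higher (1.254 ± 0.12) and Lgi2 and Lgi4 lower (-0.83 ± 0.16 and -0.45 ± 0.08). Lgi1 had 8 and 6 reads with Phf8 shRNA and 4 and 10 with control shRNA and was not tested.

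Of 21 listed transcription factors and cytokines known to regulate metalloproteinase genes, 19 were tested, of which 2 rose and 14 fell (84.2% called, against the same 60.4%), with a median of -0.50. Runx1 stood at 0.740 and 0.654 CPM with Phf8 shRNA and at 15.5 and 13.9 CPM with control shRNA (-4.38 ± 0.15), and Fosl2 at 12.7 and 11.4 CPM with Phf8 shRNA and at 62.8 and 64.1 CPM with control shRNA (-2.39 ± 0.07). Fos and Junb, AP-1 subunits, fell by 1.12 ± 0.06 and 1.55 ± 0.09, and Nfkb1 and Etv5 fell by 0.73 ± 0.06 and 0.57 ± 0.06. Sp1 and Egr1 did not pass (-0.08 ± 0.06 and -0.14 ± 0.07). Etv4 and Smad3 rose, by 1.16 ± 0.12 and 0.23 ± 0.07.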

How the data were processed

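Whole-number read counts per gene, as deposited by the authors in 1 table per library, were used unchanged. Per the submitters' processing notes the tools are HISAT2, HTSeq and DESeq2 and the build is mm10. Their versions and settings, the annotation release and the strand setting were not stated. GENCODE M21 supplied names, gene types, exonic lengths and overlaps.

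All 4 libraries were fitted together with edgeR 4.0.16 (R 4.3.3), without covariates, after filterByExpr and TMM scaling. The two-sided quasi-likelihood F test was adjusted by Benjamini-Hochberg over the 21042 genes tested, with calls at an adjusted p under 0.05. SE, which follows each ± sign, is the size of the log2 fold change over the square root of F. The script was tested on simulated data. The design text calls the libraries biological replicates without naming separate cultures. The p-values reflect the spread among these 4 libraries, which was small (3.64% as a biological coefficient of variation) and may be partly or wholly technical. If spread between cultures is missing from it, the p-values and SE are too small. Samples numbered alike in the 2 groups did not deviate together (r = -0.00102 across genes). Values per library are given for called members of at least 2-fold averaging 0.5 CPM or more and for 14 members listed by name, and further members were added after their values were seen. The members and lists were chosen with earlier results of these data known. The zinc motif was searched in open reading frames of GENCODE M21 transcripts, in place of the planned protein table. Alternatives used DESeq2 1.42.0 and limma 3.58.1.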

Additional observations from a re-analysis of the deposited data

How the results depend on the processing

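Over 15 alternative settings no called member was called in the other direction, and 17 of the 39 calls were tested and kept in every one, among them 15 of the 17 of at least 2-fold. With a biological coefficient of variation set to 0.2, against the 3.64% estimated from these libraries, 19 members were called (4 higher and 15 lower) and 3305 genes in all (1262 higher and 2043 lower), and 13 of the 39 calls, that of Timp4 among them, were lost under this setting alone. The other settings gave 34 to 42 member calls. Leaving out 1 library at a time gave 36 to 38 member calls, 11 to 14 higher and 23 to 25 lower. With the replicate number as a block (replicate block) 39 members were called, 14 higher and 25 lower, and no member's call changed. Without the members of at least 10% opposite-strand overlap, a cut chosen after seeing the data, 32 of 43 tested members were called. This is 74.4%, against 75.0% of all tested members and 60.4% of tested protein-coding genes. Depth limits the members with few reads most: Adam5 had 3 reads with Phf8 shRNA and 27 with control shRNA, and its call was lost without Phf8 shRNA replicate 1. Adamts15, the other call of at least 2-fold not kept in every setting, was not tested at a mean of at least 1 CPM and kept its call in the other 14.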
